A study of Drosophila melanogaster with 4 samples.

Results

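The regions described here are the stretches of pericentric sequence, the sequence next to the centromeres, that carried RNA polymerase II (Pol II) in Drosophila larvae. They are the regions named as enriched whose midpoint lay on 1 of 6 heterochromatic scaffolds (2LHet, 2RHet, 3LHet, 3RHet, XHet and YHet, together 9.28 Mb) or in the proximal window, which is the 2 Mb nearest the centromere, of the arms 2L, 3L, 3R and X (together 8 Mb). A Het scaffold is sequence assigned to the heterochromatin of an arm but not joined to it in release 5 of the fly genome. Of the enriched regions, 465 of 7517 in replicate 1, 334 of 6487 in replicate 2 and 520 of 8273 in the list made for the replicate set met this rule, which is 6.19%, 5.15% and 6.29% of these lists. The Het scaffolds held 127, 61 and 160 of them, and the proximal windows held 338, 273 and 360.

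Pol II was mapped by chromatin immunoprecipitation and sequencing (ChIP-seq), with an antibody labelled RNA Pol II (abcam), in nuclei of wild-type larvae of instar 3. The strain was Oregon-R, with the official name Oregon-R-modENCODE, and no allele or treatment set the samples apart. There were 2 Pol II ChIP samples and 2 input samples, which are chromatin that was not immunoprecipitated; their numbers are crossed, so that ChIP replicate 1 was set against input replicate 2 and the other way round. The labels do not tie the replicates to separate collections of larvae, so their spread may be no more than technical, and they give neither the sex nor the tissue of the nuclei. In such a mixture, fewer cells with Pol II at a place and less Pol II per cell cannot be told apart.

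Pol II transcribes protein-coding genes. Pericentric heterochromatin is rich in transposons and simple repeats, is marked by methylation of lysine 9 of histone H3, and is bound by the protein HP1. It still holds genes, among them light and rolled in Drosophila, and several of these depend on their heterochromatic surroundings for normal expression. Genes on the Y chromosome include male fertility factors with very long introns, which are transcribed in the male germ line. The arm sequences of release 5 stop at different points between euchromatin and the centromere. Gene positions on release 5 were not used here, so the regions below are given by position and not by gene.

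The values rest on the following depth. Each region carries a score, a log2 value that is read here as ChIP over input, and a fold is 2 to the power of the score. After 1 constant per list was taken off, every score of the 3 lists was the log2 of 1 whole number over another, so ChIP and input reads per region are known in lowest terms, as lower limits. That constant was −0.08 in replicate 1 and 0.27 in replicate 2, so levels of scores and folds are compared between places within a list and not between the lists. In pericentric regions these limits came to 0.257 M ChIP reads and 0.111 M input reads in replicate 1, and to 0.205 M and 0.0962 M in replicate 2. Intervals given with folds, shares and densities are 95% intervals that cover counting error only, and since the reads have no molecular identifiers they need not be separate molecules. Those of folds were computed from the reads in lowest terms. They are thus at least as wide as the full counts would give, and their widths are not comparable between regions or lists. Regions are not replicates of a condition. With 2 replicates an exact permutation of signs cannot go below p = 0.5 (two-sided), so the differences below carry no p-value, and each is given in both replicates.

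Pol II regions were sparse on the Het scaffolds, denser in the proximal 2 Mb and densest on the rest of the arms. The Het scaffolds had 13.7 regions per Mb (11.4 to 16.3) in replicate 1 and 6.57 (5.03 to 8.44) in replicate 2, which averages 10.1 ± 5.0 (SD, n = 2). The proximal windows had 42.2 (37.9 to 47.0) in replicate 1 and 34.1 (30.2 to 38.4) in replicate 2, which averages 38.2 ± 5.7 (SD, n = 2). The rest of 2L, 3L, 3R and X had 59.2 and 52.1 per Mb in these replicates. The Het density was thus 0.324 of the proximal density in replicate 1 (0.262 to 0.398) and 0.193 in replicate 2 (0.143 to 0.255). In both replicates the interval lay below 1. The proximal density was 0.713 (0.637 to 0.796) and 0.655 (0.578 to 0.740) of that on the rest of the arms. All lengths take in any sequence gaps, which were not measured and lower a density.

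The arms differed in this comparison. The right arm of chromosome 3 had the widest gap. 3RHet, 2.52 Mb long, held 19 regions in replicate 1 and 11 in replicate 2, against 144 and 123 in the proximal 2 Mb of 3R. Its density was 0.105 (0.061 to 0.170) and 0.0710 (0.035 to 0.132) of the proximal one. On the left arm of chromosome 2, 2LHet held 6 and 3 regions on 0.369 Mb, against 87 and 68 in the proximal window, with density ratios of 0.374 (0.134 to 0.847) and 0.239 (0.048 to 0.729). On 3L the scaffold and the window were closer to each other. 3LHet held 45 and 17 regions on 2.56 Mb, against 49 and 32 in the proximal window, and the ratio was 0.719 (0.469 to 1.10) in replicate 1 and 0.416 (0.217 to 0.771) in replicate 2, so the interval took in 1 in replicate 1 alone. On the X no gap in density was detectable. XHet held 6 and 5 regions on 0.204 Mb, against 58 and 50 in the proximal window, with ratios of 1.01 (0.357 to 2.34) and 0.980 (0.305 to 2.44). These intervals are wide and allow a difference of over 2-fold in either direction. The scaffolds 2RHet, with 15.2 and 7.30 regions per Mb, and YHet, with 1 region in each replicate, have no proximal window in this comparison.

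**Figure D1:**
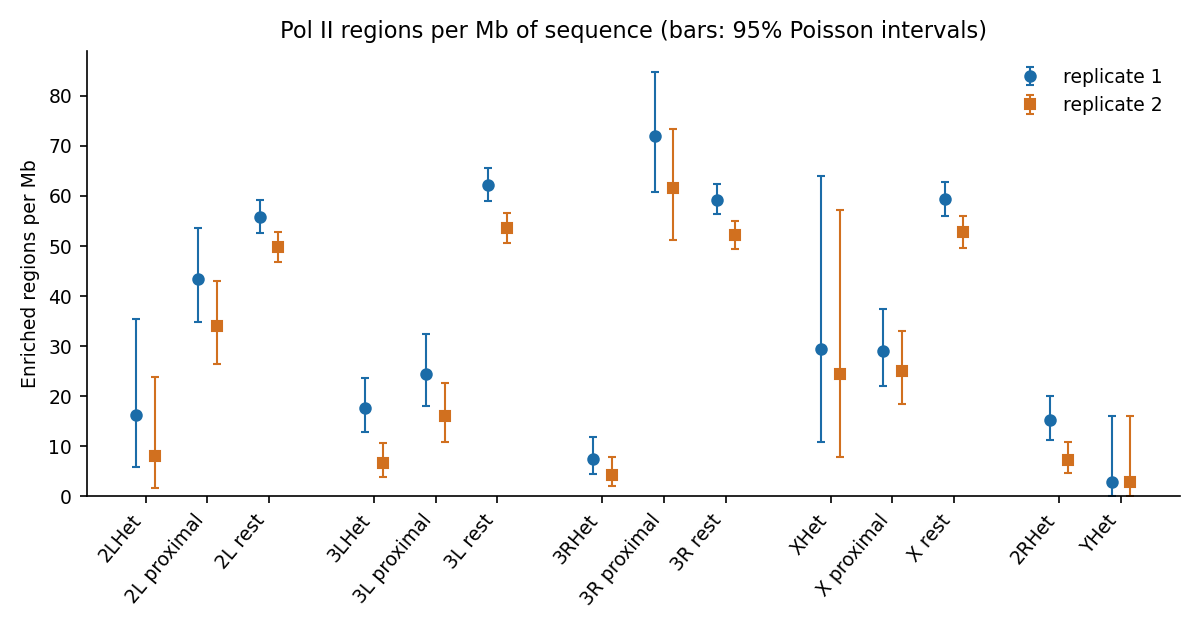
Enriched regions per Mb of sequence (vertical axis) for each Het scaffold, the proximal 2 Mb of its arm and the rest of the arm, with circles for replicate 1, squares for replicate 2 and bars for 95% Poisson intervals. 3RHet stands at 7.55 and 4.37 regions per Mb beside 72.0 and 61.5 in the proximal window of 3R, while XHet and the proximal X overlap.

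Coverage, the percent of bases inside regions, followed the density. The Het scaffolds were 3.28% covered in replicate 1 and 1.91% in replicate 2, and the proximal windows 12.8% and 10.8%. The difference, Het minus proximal, was −9.25 ± 0.45 percentage points (SD, n = 2). In bases covered in both replicates, the Het scaffolds had 1.41%, the proximal windows 9.57% and the rest of the arms 15.6%. On the single scaffolds this share was 2.98% on 2LHet, 1.29% on 2RHet, 1.59% on 3LHet, 0.937% on 3RHet, 5.55% on XHet and 0.585% on YHet. Coverage was lower on the scaffold than in the proximal window of the same arm on all 4 arms in both replicates. The smallest such difference was that of the X, at −0.850 percentage points in replicate 1 and −1.28 in replicate 2, and the largest that of 3R, at −23.2 and −20.3. Sequence gaps were not measured and lower all these shares.

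Much of the Het scaffolds lay in long stretches without regions. Stretches of at least 100 kb with no region in any of the 3 lists took up 66.1% of the Het scaffolds, 29.5% of the proximal windows and 12.1% of the rest of the arms. A low density by itself leaves more such stretches, and whether the regions were grouped beyond that was not tested. Sequence gaps, and repeats in which reads cannot be placed, also leave stretches without regions, and neither was measured. The longest on each scaffold ran for 664 kb on 3RHet (795779 to 1459455), 624 kb on 2RHet (2150707 to 2774839), 300 kb on 3LHet (865835 to 1165752), 158 kb on YHet (1 to 157883), 118 kb on XHet (86436 to 204112) and 113 kb on 2LHet (255557 to 368872). The 3 largest scaffolds were each cut into 4 parts of equal length. On 3RHet the replicates had no region in the first 2 parts, 8 and 6 in the third and 11 and 5 in the last, while the replicate set list had 2 regions in each of the first 2. On 2RHet the third part had 1 region in replicate 1 and none in replicate 2, against 17 and 9 in the first and 21 and 12 in the last. 3LHet had no such empty part, with 8 to 14 regions per part in replicate 1 and 2 to 6 in replicate 2. Whether the order of these pieces follows the distance to the centromere is not given in the files, so no trend is read from it.

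XHet and YHet can be given region by region. All regions of XHet in the 3 lists lay within 29.8 kb of its 204 kb. The strongest ran from 74346 to 80742 in the replicate set, at 2.01-fold (1.79 to 2.25); replicate 1 had 2 regions there, at 2.00-fold (1.72 to 2.33) and 1.17-fold (0.948 to 1.45), and replicate 2 had 1 at 3.16-fold (2.80 to 3.56). The next ran from 59952 to 64418, with 1.85-fold in the replicate set, and 2.07-fold and 2.41-fold in replicates 1 and 2. The other 3 XHet regions, starting at 56666, 67034 and 84058, had folds of 1.25, 1.40 and 1.38 in the replicate set. In the replicates these 3 stood between 1.29-fold and 1.56-fold, and all 5 places were found in both replicates. The YHet region found in both replicates, 304312 to 306466, stood at 3.13-fold (2.40 to 4.08) in the replicate set, 2.76-fold (1.91 to 3.99) in replicate 1 and 3.48-fold (1.63 to 7.43) in replicate 2. That score ranked at the 79.4 percentile of the replicate 1 list and the 78.9 percentile of the replicate 2 list. A second YHet region, 157884 to 158884, was in the replicate set alone, at 8.49-fold with limits of 8 ChIP reads and 1 input read, which gives an interval of 1.06 to 67.9.

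The strongest Pol II regions of the 4 other scaffolds that both replicates held were weaker than those of the proximal windows. On 2RHet it was 469760 to 472806, at 3.67-fold (3.41 to 3.95) in the replicate set, with 3.46-fold and 4.25-fold in replicates 1 and 2. On 3RHet it was 2473244 to 2478562, at 3.63-fold (3.29 to 4.00), and the 2 replicates had 3.05-fold and 3.39-fold there; it also held the longest stretch of that scaffold covered in both replicates, 5.17 kb. On 3LHet it was 2396634 to 2403134, at 3.12-fold (2.96 to 3.29), with 2.78-fold and 3.85-fold in the replicates, and it held the longest such stretch of 3LHet, 5.86 kb. On 2LHet it was 165712 to 170034, at 2.03-fold (1.89 to 2.19), with 1.76-fold and 2.70-fold. Both replicates put the 2RHet region highest and the 2LHet region lowest of these 4. In the proximal windows the highest were 484248 to 487430 on 3R at 7.62-fold (7.10 to 8.17), 20898166 to 20900426 on the X at 7.09-fold (5.82 to 8.64), 21626446 to 21630990 on 2L at 5.98-fold (5.64 to 6.34) and 22719758 to 22722416 on 3L at 4.10-fold (3.41 to 4.94). On each of these 3 arms with a scaffold above, 2L, 3L and 3R, the interval of the scaffold's region lay below that of the arm's region. These are the extremes of lists of unequal length, and the longer list is more likely to hold the higher value.

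The longest stretches covered in both replicates were also shorter on the scaffolds. They measured 6.47 kb on 2RHet (2807835 to 2814300), 3.71 kb on 2LHet (33826 to 37534), 3.24 kb on XHet (74393 to 77628) and 2.03 kb on YHet (304429 to 306458). The proximal windows had 12.5 kb on 3R (1415826 to 1428309), 8.35 kb on 2L (22424570 to 22432920), 7.61 kb on 3L (22859718 to 22867330) and 6.48 kb on the X (21874957 to 21881437). These are the longest of 1 to 20 stretches per scaffold and of 27 to 130 per window, and a larger number is more likely to hold a longer one. The median stretch did not differ in this way, at 1895 to 2632 bp on the scaffolds and 2148 to 2220 bp in the windows.

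Typical width and score differed less between the places than density did. The median width was 2022 bp on the Het scaffolds, 2218 bp in the proximal windows and 2250 bp on the rest of the arms in replicate 1, where the whole list had 2245 bp. In replicate 2 these medians were 2427, 2320 and 2274 bp, and 2281 bp in the whole list. The difference, Het minus proximal, was −196 bp in replicate 1 and 107 bp in replicate 2, so the replicates did not give 1 direction. Median scores were 0.66 on the Het scaffolds, 0.75 in the proximal windows and 0.79 on the rest of the arms in replicate 1, with 0.78 in the whole list. In replicate 2 they were 0.86, 1.06 and 1.04, with 1.04 in the whole list. The difference, Het minus proximal, was −0.08 in replicate 1 and −0.20 in replicate 2 on the log2 scale. Between regions of 1.5 to 3 kb the Het median was 0.63 and the proximal one 0.69 in replicate 1, and these were 0.66 and 0.93 in replicate 2. In replicate 1, 79.5% of the Het and 85.8% of the proximal regions had a counting interval wholly above a score of 0, beside 88.2% of the whole list. In replicate 2 these were 98.4%, 87.2% and 89.7%. These percentages are lower limits, since the intervals come from reads in lowest terms. By arm the score of the scaffold was below that of the window in both replicates on 3R (by −0.13 and −0.14) and the X (by −0.22 and −0.49), and above it in both on 3L (by 0.016 and 0.071). On 2L the sign differed between the replicates. Of the Het regions, 11.0% in replicate 1 and 9.84% in replicate 2 were in the top 25% of their list by score, against 20.1% and 19.8% of the proximal regions. The tie between width and score was looser on the scaffolds of replicate 1, with Spearman's rho 0.21 across 127 Het regions and 0.67 across 338 proximal ones. In replicate 2 rho was 0.55 and 0.62. These are descriptions across regions, which share their libraries.

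The proximal windows were compared with the rest of their own arm. Coverage was lower in the window on 3 arms, with differences, window minus rest, of −13.0 ± 0.5 percentage points on 3L, −11.9 ± 1.4 on the X and −6.24 ± 0.20 on 2L (SD, n = 2 each). On 3R it was higher by 4.93 ± 0.92 (SD, n = 2), at 25.1% in the window and 19.5% on the rest of 3R in replicate 1, and 21.6% and 17.3% in replicate 2. Each arm was also split into adjoining windows of 2 Mb, counted from the centromeric end. In bases covered in both replicates, the proximal window was the lowest of 11 on 2L, of 12 on 3L and of 11 on the X, and ranked 12 from the lowest of 13 on 3R. The 3L window had 3.62%, where the other windows of that arm had 10.4% to 21.2%. The X window had 6.41%, where the others had 12.2% to 25.7%, and the 2L window 8.19%, where the others had 9.40% to 20.3%. The 3R window had 20.0%, where the others had 10.5% to 23.2%. The 3R difference depended on the length of the window. With 1 Mb it was 1.39 percentage points in replicate 1 and −0.182 in replicate 2, and with 3 Mb it was 1.43 and 0.256.

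Within the proximal 2 Mb, coverage rose with distance from the centromeric end on 3L. It showed no steady rise across the bins on 3R or the X. The outer 1 Mb was more covered than the inner 1 Mb on all 4 arms in both replicates. Over 8 bins of 250 kb on 3L, Spearman's rho with distance was 0.81 in replicate 1 and 0.88 in replicate 2. The outer 1 Mb of the 3L window was 10.5% and 7.47% covered, against 2.14% and 2.16% in the inner 1 Mb. The 3L bin from 250 to 500 kb held 1 region in each replicate. On 3L the score also rose with distance, with rho 0.46 across 49 regions and 0.57 across 32. On 2L the rho of coverage was 0.43 and 0.55; the outer 1 Mb was 12.9% and 12.01% covered, against 10.8% and 7.79% in the inner 1 Mb. Its outermost bin, from 1750 to 2000 kb, had 24.05% and 20.2%, and the next highest of its bins in each replicate had 13.9% and 15.5%. On the X rho was 0.05 and 0.02, with a peak of 20.5% and 15.4% at 1000 to 1250 kb and at most 11.8% in any other bin. The outer 1 Mb of the X window was 9.69% and 8.07% covered, against 6.54% and 5.99% in the inner 1 Mb. On 3R rho was −0.10 and 0.00, and the outer 1 Mb was 28.9% and 25.8% covered, against 21.3% and 17.5% in the inner 1 Mb. The innermost 250 kb of the 3R sequence was already 33.2% and 27.5% covered, and the highest bin of all 4 windows lay on 3R at 1250 to 1500 kb, at 46.9% and 38.8%. The bins of an arm share its libraries, and 8 points give a rough rho.

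**Figure D2:**
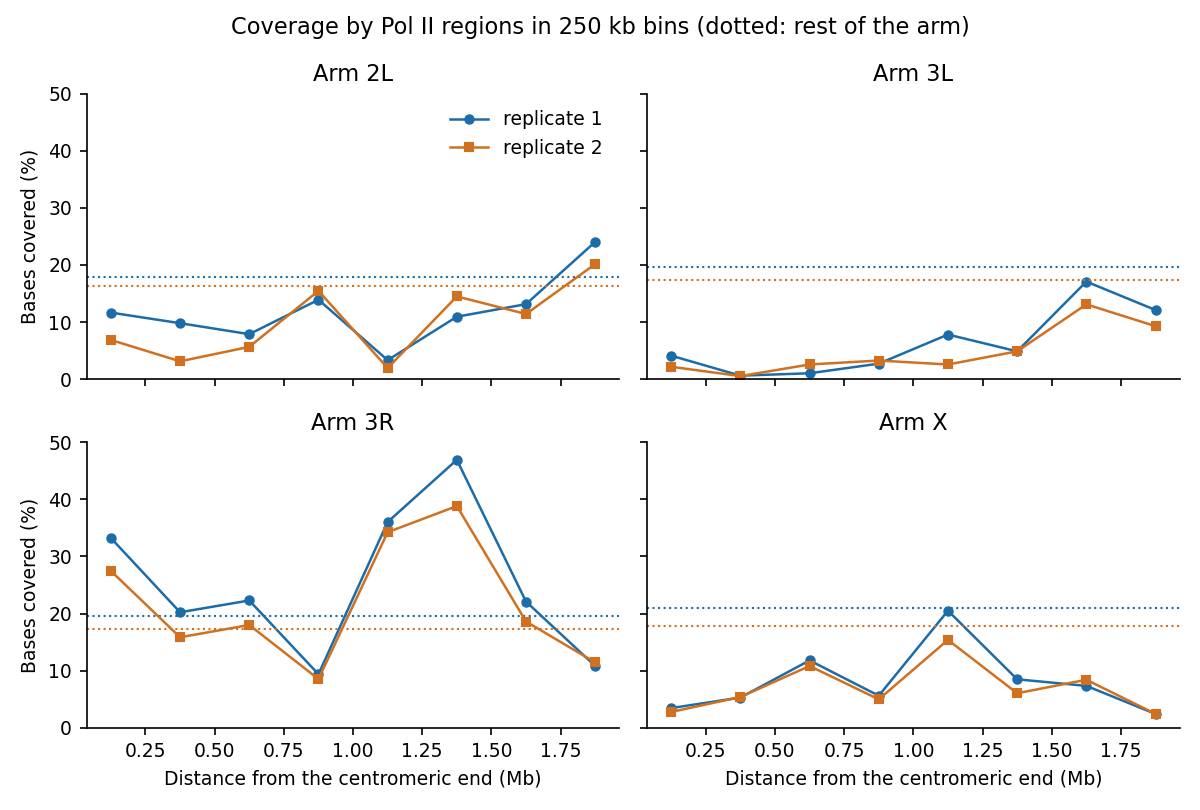
Percent of bases covered by Pol II regions (vertical axis) against the distance from the centromeric end of the arm sequence in Mb, in bins of 250 kb, for 4 arms, with circles for replicate 1, squares for replicate 2 and dotted lines for the rest of the same arm. On 3L all 8 bins lie below the dotted lines in both replicates, while 3R reaches 46.9% and 38.8% at 1250 to 1500 kb.

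Long stretches without a Pol II region also stood inside the windows. Stretches of 100 kb or more free of regions in all lists made up 49.3% of the 3L window, 49.3% of the X window and 19.3% of the 2L window, and the 3R window had none. The longest were 341 kb on the X (21502219 to 21842941), 276 kb on 3L (23745037 to 24020643) and 179 kb on 2L (21838963 to 22018295). On 3R the longest stretch without a region was 95.2 kb (1689018 to 1784261). At the 2 Mb limit itself, the farthest replicate 1 regions inside it lay 1.88 to 1.98 Mb from the end with scores of 0.70 to 1.89. The nearest outside it lay at 2.02 to 2.09 Mb with scores of 0.47 to 1.80.

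How far the replicates found the same places differed between the Het scaffolds and the arms in replicate 1. Shared here means an overlap of at least 1 bp with any region of the other replicate, and over the whole lists 80.8% of replicate 1 and 93.5% of replicate 2 regions met this. On the Het scaffolds 56 of 127 replicate 1 regions were shared, 44.1% (Wilson interval 35.8 to 52.8). In the proximal windows 253 of 338 were, 74.9% (70.0 to 79.2), and on the rest of the arms 82.5% (81.4 to 83.5). For replicate 2 the shares lay closer together, at 86.9% (76.2 to 93.2) of 61 Het regions, 91.9% (88.1 to 94.6) of 273 proximal ones and 94.0% (93.3 to 94.7) on the rest. Replicate 1 had 2.08 times as many regions as replicate 2 on the Het scaffolds, 1.24 times in the proximal windows and 1.14 times on the rest of the arms. A longer list leaves more of its regions without a partner.

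Overlap by position alone is rarer where coverage is low, so each share was set beside the share that uniform placement gives. This was counted over every start position at which a region of the same width can lie on the same sequence. Uniform placement gave 3.78% for the Het regions of replicate 1 and 7.45% for those of replicate 2. In the proximal windows it gave 23.4% and 28.2%, and on the rest of the arms 29.7% and 32.7%. The observed Het shares were thus 11.7 times the uniform ones counted from either replicate. The proximal shares were 3.20 and 3.26 times the uniform ones, and those on the rest of the arms 2.78 and 2.88 times. Both counts rest on the same overlaps, seen from 1 replicate or the other, so their likeness is not a repeated result. A share has an upper limit, so a larger uniform share caps the ratio at a lower value. The order of the ratios between places is therefore not read as a difference in how well the replicates matched. Uniform placement also took in any sequence gaps, which were not measured. In percentage points the Het regions of replicate 1 lay 40.3 above uniform placement and the proximal ones 51.5, and in replicate 2 these were 79.4 and 63.7. Where the stretches of 100 kb or more without regions were left out of the placement, the uniform shares were 10.2% and 18.7% on the Het scaffolds and 27.0% and 32.6% in the windows, and every observed share stayed above its own.

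By arm, replicate 1 shared 4 of 6 regions on 2LHet and 60 of 87 (69.0%) in the proximal 2L. It shared 16 of 45 (35.6%, 23.2 to 50.2) on 3LHet and 26 of 49 (53.1%, 39.4 to 66.3) in the proximal 3L. These 2 intervals overlap. On 3RHet it shared 10 of 19 (52.6%, 31.7 to 72.7) and in the proximal 3R 117 of 144 (81.2%, 74.1 to 86.8), which do not overlap. XHet shared 5 of 6 and the proximal X 50 of 58 (86.2%). On 2RHet the share was 20 of 50 (40.0%, 27.6 to 53.8). In replicate 2 the 5 scaffolds other than YHet shared 3 of 3 on 2LHet, 19 of 24 on 2RHet, 16 of 17 on 3LHet, 9 of 11 on 3RHet and 5 of 5 on XHet.

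On the Het scaffolds of replicate 1 the share of regions with a partner did not climb steadily with the score. Of the 14 Het regions in the top 25% of the replicate 1 list by score, 4 were shared (28.6%, 11.7 to 54.6). Of the proximal regions 65 of 68 in that range were shared (95.6%, 87.8 to 98.5), and on the rest of the arms 99.8%. In the 25% below these the shares were 62.5% (15 of 24, 42.7 to 78.8) of the Het regions, 91.2% of the proximal ones and 97.5% on the rest of the arms. In the next 25% they were 38.98% (23 of 59, 27.6 to 51.7), 60.8% and 67.2%, and in the lowest 25% 46.7% (14 of 30, 30.2 to 63.9), 57.0% (47.2 to 66.3) and 64.9%. The 4 Het intervals overlap each other, so no order among these Het shares is read. All 6 Het regions in the top 25% of replicate 2 were shared. The 10 such Het regions of replicate 1 without a partner lay on 3LHet and 2RHet, were 1312 to 2168 bp wide, and had input limits of 1 to 27 reads. The highest, on 3LHet from 2093305 to 2094787, stood at 9.45-fold from limits of 10 ChIP reads and 1 input read, with an interval of 1.21 to 73.8. The 4 with a partner were the strongest regions of 2RHet, 3RHet and 3LHet and the YHet region named above.

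**Figure D3:**
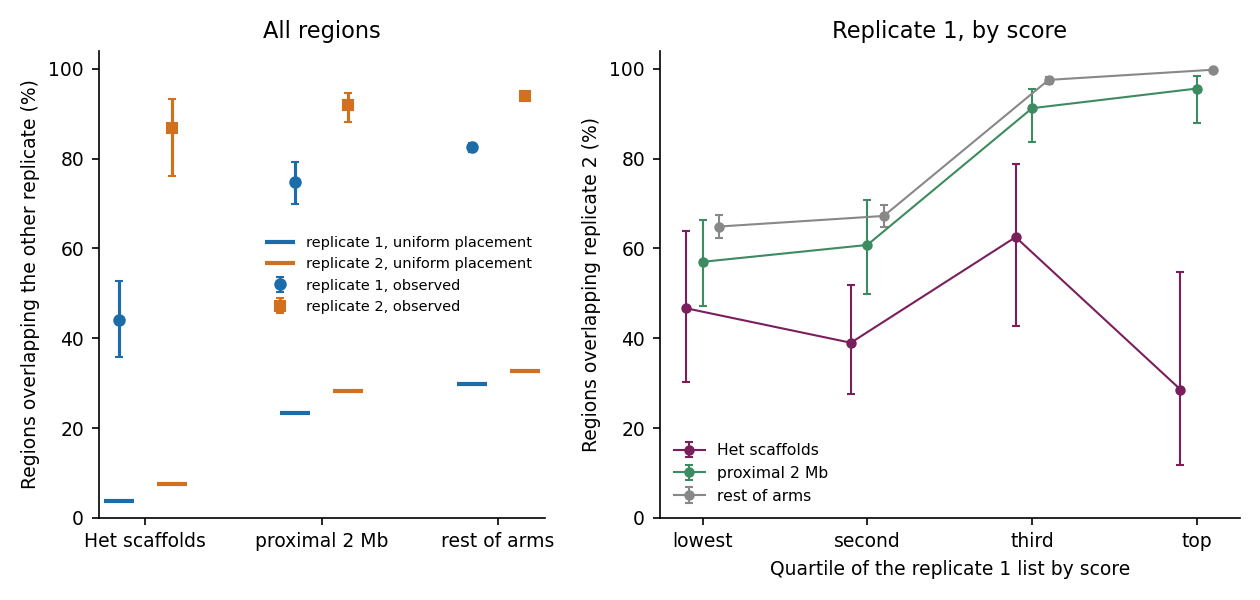
Left, percent of regions that overlap the other replicate (vertical axis) on the Het scaffolds, in the proximal 2 Mb and on the rest of the arms, with points and 95% Wilson intervals for the observed shares and horizontal dashes for uniform placement. Right, the share of replicate 1 regions found in replicate 2 by quartile of the replicate 1 list by score: it reaches 95.6% and 99.8% in the top 25% of the proximal windows and the rest of the arms, and 28.6% on the Het scaffolds, where the share is highest, at 62.5%, in the 25% below.

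Input depth moved with this result in replicate 1 and not in replicate 2. The 71 Het regions of replicate 1 without a partner had a median of 30.9 input reads per kb, and the 56 with a partner 86.6, as lower limits. The rest of the arms had 91.6. Proximal regions had medians of 83.2 without and 102 with a partner. In replicate 2 the Het scaffolds had 106 input reads per kb, close to the 101 on the rest of the arms. There the 8 Het regions without a partner had a median of 116 and the 53 with a partner 106. The replicate 1 regions were also split at the list's median of this lower limit. At or above it 28 of 39 Het regions were shared (71.8%, 56.2 to 83.5), and below it 28 of 88 (31.8%, 23.02 to 42.1). For proximal regions these shares were 80.3% (73.8 to 85.6) and 69.1% (61.7 to 75.6). Replicate 2, split at the median of its own list, shared 28 of 33 Het regions at or above it (84.8%, 69.1 to 93.3). Below it, 25 of 28 were shared (89.3%, 72.8 to 96.3). Where the ChIP and input counts of a region share a factor, its limit is below its true depth, and the split can place it too low. A low input count widens the counting error of a score. As an upper bound, that error in replicate 1 had a median of 0.26 on the log2 scale for the Het regions without a partner and 0.13 for those with one. The part that input depth has in the sharing was not tested.

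**Figure D4:**
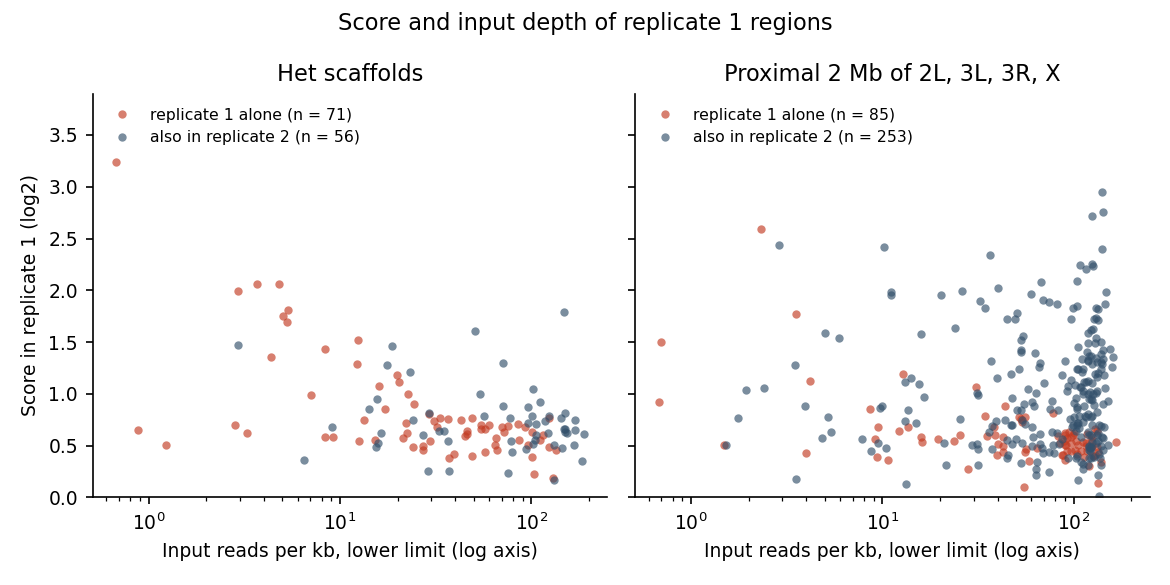
Score of each replicate 1 region on the log2 scale (vertical axis) against its input reads per kb on a log axis, as lower limits, for the Het scaffolds (left) and the proximal windows (right), with red points for regions of replicate 1 alone and blue points for regions also in replicate 2. On the left the highest scores belong to red points at low input. On the right they belong for the most part to blue points, which lie at low as well as high input.

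Where both replicates had the same region, their scores were more alike in the proximal windows than on the scaffolds. Regions matched 1 to 1 numbered 50 on the Het scaffolds, which is 39.4% of the replicate 1 and 82.0% of the replicate 2 regions there, and 199 in the proximal windows, 58.9% and 72.9%. Pearson's r across regions was 0.65 and Spearman's rho 0.50 on the scaffolds, and 0.92 and 0.90 in the windows. The Het scores of replicate 1 ran from 0.17 to 1.79 and the proximal ones from 0.02 to 2.95, and a narrower range lowers a correlation. The difference between the replicates, replicate 2 minus replicate 1, does not depend on that range in the same way. Its SD was 0.35 (log2) across the matched Het regions, 0.27 across the proximal ones and 0.25 across those of the rest of the arms. Its mean was 0.18 in all 3 places, which takes in the difference between the constants of the lists.

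**Figure D5:**
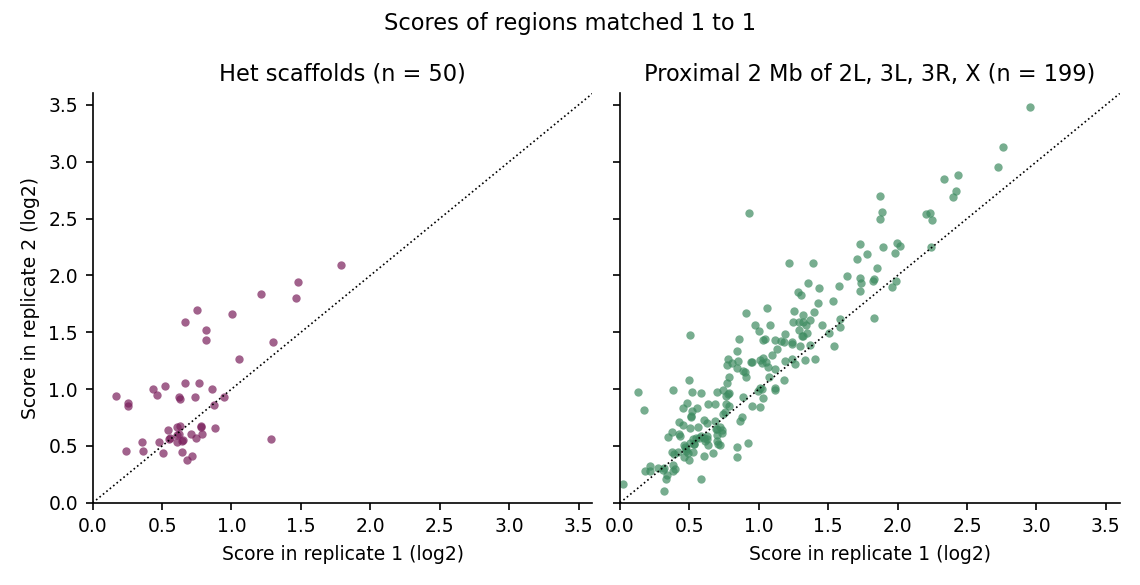
Scores of regions matched 1 to 1, on the log2 scale, in replicate 2 (vertical axis) against replicate 1 (horizontal axis), 1 point per region, for the Het scaffolds (left, n = 50) and the proximal windows (right, n = 199), with a dotted line of equal scores. Het scores end at 1.79 in replicate 1 and scatter more widely around the line than the proximal ones.

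The replicate set list, which is not independent of the replicates, divided in the same way. Over the whole list 66.4% of its regions overlapped both replicates and 14.3% neither. Of its 160 Het regions, 54 overlapped both (33.8%, 26.9 to 41.4), 57 replicate 1 alone, 9 replicate 2 alone and 40 neither (25%, 18.9 to 32.2). Of its 360 proximal regions, 228 overlapped both (63.3%, 58.2 to 68.2), 64 replicate 1 alone, 19 replicate 2 alone and 49 neither (13.6%, 10.5 to 17.5). Over all scaffolds pooled, the regions found in neither replicate had a median score of 0.75, against 0.63 for those found in both. Those in neither had medians of 44.5 ChIP and 28 input reads as limits and a median width of 1170 bp. The scaffolds did not share 1 order. Regions in neither scored higher on 3LHet (1.42 for 8 regions, against 0.68) and 3RHet (0.80 for 7, against 0.60), and in the 1 such region of YHet. They scored lower on 2RHet (0.47 for 21 regions, against 0.61) and 2LHet (0.61 for 3, against 0.96). Pooled proximal regions scored lower in neither than in both, at 0.35 and 0.98, and on the rest of the arms these were 0.36 and 1.00.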

How the data were processed

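The authors deposited 3 lists of regions, 1 for each Pol II ChIP replicate and 1 for the replicate set, on FlyBase release 5 per the file headers. Each region is named as enriched or depleted and has 1 log2 value deposited by the authors, here called its score; its make-up is not stated in the files. The submitters' processing notes name the aligner Bowtie, version 0.12.7. The sources used here do not give the region caller, its threshold or its handling of reads that fit several places, and repeats are common in pericentric sequence.

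Members were chosen by midpoint, with lengths from the file headers. Scores were turned into ratios of whole numbers (relative tolerance 1e-11, denominators up to 20000), which all 7524, 6489 and 8320 scores passed. Score levels were compared between places within a list, since the constant differs between lists; the difference between replicates of matched regions was compared between places by its SD, which a constant does not change. Densities carry exact Poisson intervals, ratios of densities exact conditional binomial intervals and shares Wilson intervals, all at 95%. Uniform placement was counted exactly, with no resampling. Named are all regions of XHet and YHet, and for each other place the highest scoring replicate set region found in both replicates, the longest stretch covered in both and the longest stretch free of regions. The members, places and measures were chosen with earlier results of these data known; the division by input depth and by score quartile, and the high-scoring Het regions singled out there, were chosen after their values were seen. Tools were Python 3.11.15 with scipy 1.17.1, pandas 2.3.3, numpy 2.4.6 and, for figures, matplotlib 3.10.9; overlaps were checked against bedtools 2.31.1, and the counts and the placement were tested on simulated data. The alternatives tried were a higher score threshold, other window lengths, other overlaps, the replicate set list and each replicate alone.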

Additional observations from a re-analysis of the deposited data

Results flagged for a closer look

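Values below stand apart because both replicates of 1 arm went one way and both replicates of other arms went the opposite way; none of these differences between arms was tested. The proximal 2 Mb of 3R had 1.22 times the region density of the rest of 3R in replicate 1 and 1.18 times in replicate 2, where 2L, 3L and the X had ratios of 0.299 to 0.779. Coverage in the 3R window was higher than on the rest of 3R by 5.58 percentage points in replicate 1 and 4.29 in replicate 2, and lower on the other 3 arms. The median width of 3R regions was larger in the window by 170 bp in replicate 1 and 157 bp in replicate 2, where it was smaller in both replicates on 2L and the X. The median score on 3LHet was above that of the proximal 3L by 0.016 in replicate 1 and 0.071 in replicate 2, where on 3R and the X the scaffold was below the window in both.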

How the results depend on the processing

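Of 63 alternative values, 33 stayed within the SD between replicates or the 95% interval of the value in the report, 28 moved beyond it and 2 changed sign. With 2 replicates, a value with 1 left out lies within that SD by construction. The length of the window cannot change the shared shares of the Het scaffolds. The 33 include values of both kinds, which were fixed in advance and say nothing on how stable a result is. In the higher scoring 50% of each list, the Het density was 0.155 of the proximal one, coverage differed by −6.65 percentage points, median width by −395 bp and median score by −0.046. There the window minus the rest of the arm was −7.27 points on 2L, 3L and the X together and 3.79 on 3R. The shares found in the other replicate became 28.9% (Het) and 82.4% (proximal) for replicate 1 and 58.8% (Het) for replicate 2. With 50% reciprocal overlap they were 35.4% (Het) and 64.5% (proximal) for replicate 1, and 73.8% (Het) and 79.9% (proximal) for replicate 2. In the replicate set list the density ratio was 0.383, the coverage difference −10.5 points and the window minus the rest −12.6 points on 2L, 3L and the X. A window of 1 Mb gave −6.68 points for Het minus proximal coverage, −12.1 for the window minus the rest on 2L, 3L and the X, and 0.605 on 3R. A window of 3 Mb gave −10.5, −7.43 and 0.845. The width difference turned to 17 bp with the 1 Mb window; the cause was not tested. By arm the mean density ratio was 0.567 on 3L, 0.0879 on 3R and 0.997 on the X, and 0.538 over all scaffolds and windows once stretches of 100 kb or more without regions were left out of both. Leaving those out raised uniform placement to 10.2% and 18.7% for the Het regions of replicates 1 and 2. With 1 replicate left out, the density ratio ran from 0.193 to 0.324, the coverage difference from −9.57 to −8.93 points, the width difference from −196 to 107 bp, the score difference from −0.20 to −0.08, and the window minus the rest from −10.8 to −9.95 points on 2L, 3L and the X and from 4.29 to 5.58 on 3R. Keeping the Het scaffolds of 2L, 3L, 3R and X alone, chosen after seeing the data, gave a density ratio of 0.253. Sharing has no value with a replicate left out. No paired analysis was possible because both lists come from a single group, Pol II ChIP, and lists for the inputs were not analysed here. Median counting error of a score in replicate 1 was 0.19 on the log2 scale for Het regions and 0.13 for proximal ones. In replicate 2 it was 0.13 and 0.12. All are upper bounds, and whether depth limited the scaffolds more in replicate 1 was not tested.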

Other observations

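The replicate set named 47 regions as depleted, 3 of them in the proximal windows and none on the Het scaffolds. The 3 lay on 2L, from 21074514 to 21076414, 21379272 to 21380998 and 21617838 to 21619656, with scores of −0.026, −0.0078 and −0.019. The first overlapped an enriched region of both replicates, the second one of replicate 1 and the third one of replicate 2. Neither replicate had a depleted region in pericentric sequence.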
